A study of Mus musculus with 4 samples.

Results

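The mature adipocyte marker genes described here are 10 genes whose products carry out the storage, release and hormone functions of the fat cell: Adipoq, Cfd, Retn, Agt, Lpl, Cd36, Fabp4, Cidec, Lipe and Slc2a4. They were chosen by name, as every non-control probe of the arrays that carried one of these gene names. The rule uses the names alone, but the list was drawn up with earlier results of these data known. The 10 genes were covered by 16 probes and 25 spots, among 21593 named genes with a value on all 4 arrays.

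3T3-L1 is an established mouse cell line of preadipocytes that turn into adipocytes after hormonal induction. All cells had received initiation medium with 10 μg/mL insulin, 1 μM dexamethasone and 0.5 μM IBMX, the concentrations given in the labels, and RNA of day 2 was measured on Agilent Whole Mouse Genome arrays with 1 dye. The 4 conditions were DMSO at 0.1%, bilberry extracts at 100 μg/mL, delphinidin at 100 nM and cyanidin at 100 nM, and the same 0.1% DMSO was present in every culture. There was 1 array per condition, so the spread between cultures is unknown, no difference below has a replicate check, and no p-value is given. As a culture of 1 cell line in plastic, the model lacks the vessels, immune cells and nerves of adipose tissue.

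An adipocyte takes up fatty acids that lipoprotein lipase frees from circulating lipoproteins, binds them inside the cell, stores them as triglyceride in lipid droplets, and releases them again through lipases. It also takes up glucose through an insulin-responsive transporter and secretes protein hormones such as adiponectin, adipsin and resistin. Most of these genes are induced late in the adipogenic program, under the transcription factors Ppar γ and C/ebp α, and serve as markers that differentiation has advanced.

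The comparison asks how far these markers differed from the DMSO culture with each additive on day 2. Levels are given as log2 of the processed signal divided by the 75th percentile of the array, so that 0 is the 75th percentile. The 75th percentile was 861 for DMSO, 576 for bilberry, 1009 for delphinidin and 1016 for cyanidin, while the median log2 signal of 10 spike-in control RNAs on the bilberry array was 0.95 above that on the DMSO array. Scaling to these spike-ins instead moved the median bilberry ratio of 12896 genes well above background from 0.16 to -1.37 on the log2 scale, and the medians of delphinidin and cyanidin from -0.02 and 0.01 to 0.25 and 0.25. This scaling shifts all genes of an array alike, so the rank of a gene among the others is unchanged. All bilberry ratios below are therefore relative to the other genes of the array, and whether the total message content of the bilberry culture differed was not tested. Less RNA of a marker per cell and fewer cells that had begun to express it cannot be told apart in these bulk samples.

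On every array all 16 probes passed the software's call of being well above background, so every marker gave a signal on day 2 in each culture, and none of the 25 spots was saturated. No array of uninduced cells was made, so induction cannot be read from these signals. The error model of the scanner software gave 10 to 10.6% per spot, which by that model gives a log2 ratio of 2 arrays an error of 0.204 to 0.209. Multiplied by 1.96 this is about 0.40, and differences under 0.40 are described as within spot error. This limit was nearly the same for every marker and wider than the measured spread of spots. Over 140 probes spotted 10 times, the median SD of spots on an array was 0.030 to 0.037. The limit is that of a single spot and was not lowered for Slc2a4, whose value averages several spots. This error covers the spot and not the culture.

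With bilberry extracts, 3 of the 10 genes (Adipoq, Retn and Slc2a4) were more than 2-fold lower than with DMSO, where 6.58% of the 12896 genes were. None was more than 2-fold higher, where 4.06% of all genes were. The median log2 ratio of the 10 genes was -0.17, beside 0.16 over all genes, and their ratios ran from -1.54 to 0.80. Of the 10 genes, 5 were below 0, where 38.5% of all genes were, and 7 were below the all-gene median. The number below 0 depended on the processing, being 8 with quantile normalization, 8 with normexp and 10 with scaling to the spike-ins, where 44.0%, 45.0% and 99.3% of all genes were below 0.

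With delphinidin, no marker was more than 2-fold lower, beside 1.52% of all genes. Cfd alone was more than 2-fold higher, beside 1.19% of all genes, and the median log2 ratio of the markers was -0.04. With cyanidin, no marker was more than 2-fold lower, beside 1.39% of all genes. Cfd was again more than 2-fold higher, beside 0.605% of all genes, and the median log2 ratio was 0.32. The 3 ratios share the DMSO array, so an error of that array would appear in all of them.

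**Figure D1:**
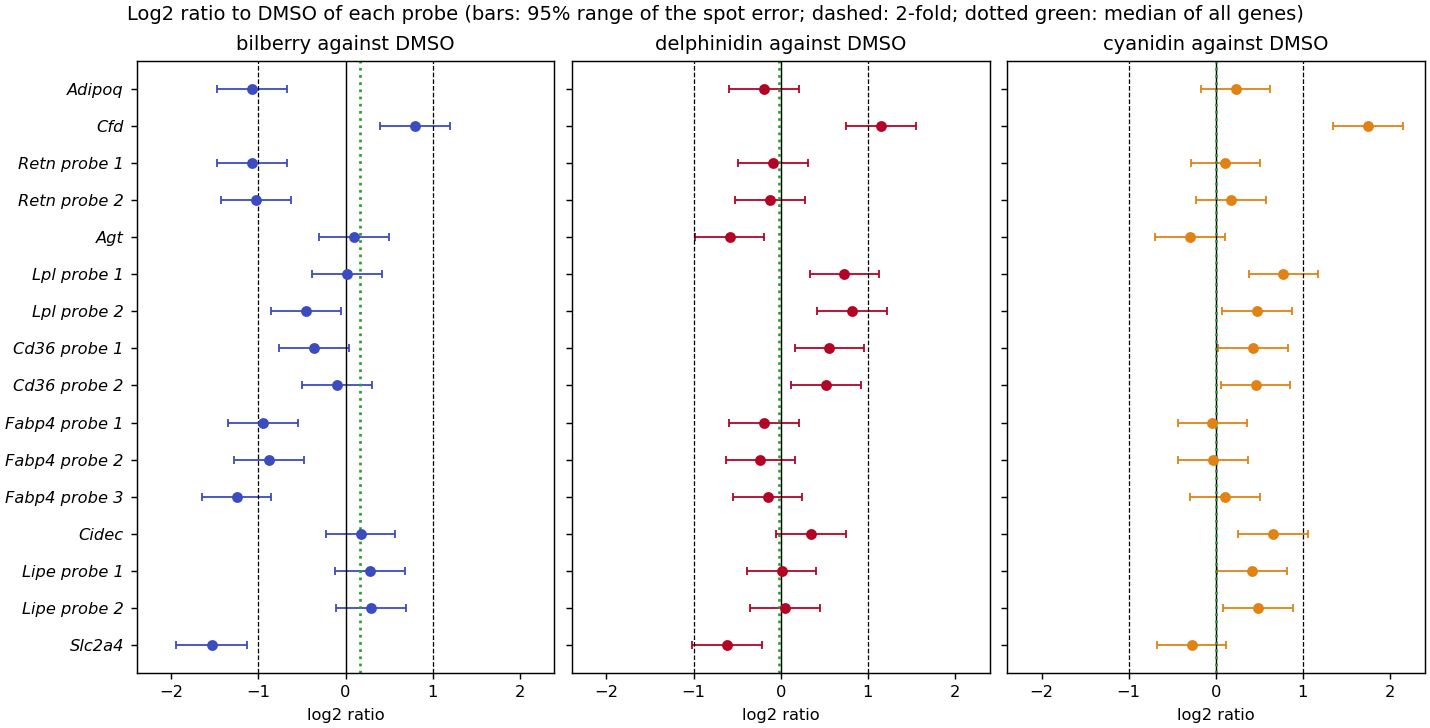
Log2 ratio to DMSO (x axis) of each of the 16 probes (y axis) for the 3 additives, with bars of 1.96 spot errors, dashed lines at 2-fold and a dotted line at the median of all genes. With bilberry the points of Adipoq, Retn, Fabp4 and Slc2a4 lie between -1.54 and -0.88, with Cfd at 0.80, whereas with delphinidin and cyanidin the point farthest from 0 is Cfd. With scaling to the spike-ins Cfd, Agt, Lpl, Cidec and Lipe lie below 0 with bilberry, as do 99.3% of all genes.

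Among the secreted products, Adipoq and Retn were lowest on the bilberry array. Adipoq encodes adiponectin, an insulin-sensitizing hormone. Its probe at chr16:23072837-23072896 (mm8, plus strand) had processed signals of 1001 for DMSO, 318 for bilberry, 1027 for delphinidin and 1384 for cyanidin. The log2 levels were 0.22, -0.86, 0.03 and 0.45 in the same order. The bilberry value was thus the lowest, and the neighbouring values of the other 3 arrays lay within spot error of each other. The log2 ratio to DMSO with bilberry was -1.07, a 2.10-fold lower level, and 5.75% of all genes had a lower ratio. With normexp background correction this ratio was -0.69, or -0.97 when spots of marked local background were left out of that correction, both short of 2-fold. The ratios with delphinidin and cyanidin were -0.19 and 0.23, within spot error, and the former was 0.07 with scaling to the spike-ins.

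Retn encodes resistin, an adipocyte hormone of the mouse. The brighter of its 2 probes (chr8:3656107-3656928, mm8, plus strand) had log2 levels of 1.71 for DMSO, 0.64 for bilberry, 1.63 for delphinidin and 1.83 for cyanidin. The other, which starts 38 bases downstream and overlaps it, had 1.25, 0.22, 1.13 and 1.43. Both probes placed the bilberry array lowest. The log2 ratios to DMSO with bilberry were -1.08 and -1.02, or 2.11-fold and 2.03-fold lower. With delphinidin they were -0.08 and -0.12, and with cyanidin 0.11 and 0.18, all within spot error. The delphinidin ratios were 0.18 and 0.14 with scaling to the spike-ins.

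Cfd went the other way. It encodes adipsin, complement factor D, a serine protease secreted by fat cells. Its probe at chr10:79295686-79295745 (mm8, plus strand) had log2 levels of -1.91 for DMSO, -1.11 for bilberry, -0.76 for delphinidin and -0.16 for cyanidin. DMSO was the lowest of the 4 arrays and cyanidin the highest, and only bilberry and delphinidin lay within spot error of each other. The log2 ratio was 1.75 with cyanidin, a 3.37-fold higher level, and 99.9% of all genes had a lower ratio. With delphinidin it was 1.15, or 2.22-fold higher, and with both forms of normexp correction 0.94 and 0.93, short of 2-fold. With bilberry it was 0.80, or 1.74-fold higher, but 1.08 with normexp, past 2-fold. Scaling to the spike-ins made it -0.73, where the all-gene median was -1.37.

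Agt encodes angiotensinogen, the precursor of the angiotensin peptides, and is also a product of liver. Its levels at chr8:127442851-127442910 (mm8, minus strand) were 7.13 for DMSO, 7.22 for bilberry, 6.54 for delphinidin and 6.84 for cyanidin. Each array lay within spot error of the next in order. The log2 ratio with delphinidin was -0.59, beyond spot error, but -0.32 and within it with scaling to the spike-ins. That with cyanidin was -0.29. The bilberry ratio of 0.10 had no stable sign, being -0.25 with quantile normalization, -0.57 with normexp and -1.43 with scaling to the spike-ins.

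**Figure D2:**
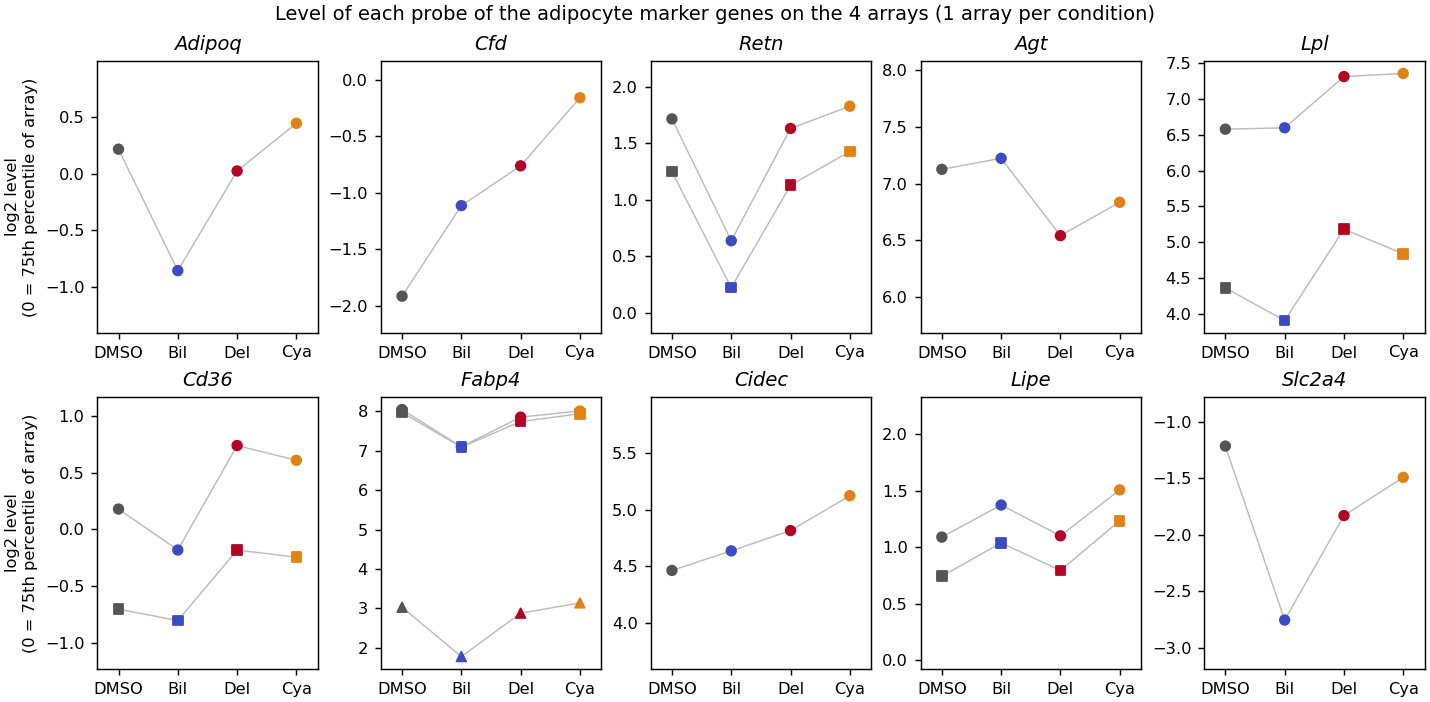
Log2 level of every probe (y axis, 0 being the 75th percentile of the array) on the DMSO, bilberry (Bil), delphinidin (Del) and cyanidin (Cya) arrays (x axis), in 1 panel per gene with a marker shape per probe; the y axes differ between panels, and no error is drawn. Adipoq lies at 0.22 with DMSO and at -0.86 with bilberry, and Cfd lies at -1.91 with DMSO and -0.16 with cyanidin. These levels are relative to each array's other genes.

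The promoters of Adipoq, Retn and Cfd are shown because the first pair was low with bilberry while the third was high with both anthocyanidins. Each is the 250 bases before the transcription start, from RefSeq on GRCm38.p6, 5′ to 3′ on the strand of the gene. Capitals mark CCAAT in either orientation. Promoters were found for 7 of the 10 genes; those of Fabp4, Lpl and Slc2a4 were not among them.
Adipoq, chr16:23146286-23146535, plus strand: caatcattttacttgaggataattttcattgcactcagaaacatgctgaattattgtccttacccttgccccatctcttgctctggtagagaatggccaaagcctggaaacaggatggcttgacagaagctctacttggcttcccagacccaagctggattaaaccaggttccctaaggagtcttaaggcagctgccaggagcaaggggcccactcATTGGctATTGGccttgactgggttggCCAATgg
Retn, chr8:3655520-3655769, plus strand: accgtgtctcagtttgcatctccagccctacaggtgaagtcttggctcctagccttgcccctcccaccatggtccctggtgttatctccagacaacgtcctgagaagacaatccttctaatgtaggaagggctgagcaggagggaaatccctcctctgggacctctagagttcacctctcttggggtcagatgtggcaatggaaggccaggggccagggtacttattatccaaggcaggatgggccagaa
Cfd, chr10:79890603-79890852, plus strand: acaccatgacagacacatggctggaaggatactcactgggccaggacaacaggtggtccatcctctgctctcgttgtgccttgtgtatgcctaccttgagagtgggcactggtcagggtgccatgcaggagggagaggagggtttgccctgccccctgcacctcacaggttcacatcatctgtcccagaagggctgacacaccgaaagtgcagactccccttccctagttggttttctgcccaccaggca

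Both strands were searched for TATAAA (the TATA box), TTGCNNAA (a form of the C/EBP site), AGGTCA (the nuclear receptor half-site), that half-site repeated after 1 base, and CCAAT. The Adipoq window held 3 matches to CCAAT, in the last 34 bases before the start, and 33.8% of 32851 promoters of the same length held at least 1. The Retn and Cfd windows held none of these motifs. Agt held TATAAA from 30 to 25 bases before the start, as 12.4% of promoters did. Cd36 held a half-site, as 14.0% did, and a CCAAT. Of the 2 Cidec promoters, that at chr6:113434765-113435014 held TTGCNNAA, as 9.56% did. Neither Lipe promoter held any, and no member window held the repeated half-site, which occurred in 0.0335% of promoters. A match is a run of letters and was not tested as a binding site.

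Among the genes of fatty acid uptake, Lpl and Cd36 were higher with delphinidin and with cyanidin than with DMSO. Lpl encodes lipoprotein lipase, which hydrolyzes the triglyceride of lipoproteins. Its brighter probe (chr8:71835357-71835416, mm8, plus strand) had log2 levels of 6.58 for DMSO, 6.60 for bilberry, 7.31 for delphinidin and 7.36 for cyanidin. The second probe, 5217 bases upstream, had 4.36, 3.91, 5.18 and 4.84. On both probes the anthocyanidin arrays were the highest. The log2 ratios with delphinidin were 0.73 and 0.82, or 1.66-fold and 1.76-fold higher. With cyanidin they were 0.78 and 0.48. All 4 of these ratios lay beyond spot error.

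The 2 Lpl probes differed with bilberry, at log2 ratios of 0.02 for the brighter and -0.46 for the upstream probe. The brighter one was -0.25 with quantile normalization, -0.64 with normexp, -0.05 with the normexp that left out marked backgrounds and -1.51 with scaling to the spike-ins. The upstream one was -0.68 with quantile normalization, -1.05 with normexp, past 2-fold, and -1.99 with scaling to the spike-ins. The difference of -0.47 between the upstream and the downstream probe had the same sign as in Fabp4, at -0.37 over 3990 bases, whereas Lipe had -0.01 over 2340 bases and Retn -0.05 over 38 bases. Among 3621 transcripts with a pair of probes the median difference with bilberry was -0.02, with deciles of -0.53 and 0.61, so the Lpl and Fabp4 values lay inside the range of most transcripts.

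Cd36 encodes a fatty acid translocase of the plasma membrane, which macrophages and muscle also express. The brighter probe spans chr5:17295116-17297548 (mm8, minus strand) and had log2 levels of 0.18 for DMSO, -0.18 for bilberry, 0.74 for delphinidin and 0.61 for cyanidin. The other (chr5:17294606-17294665) had -0.70, -0.81, -0.18 and -0.25. Both showed the anthocyanidin arrays above the DMSO and bilberry arrays. The log2 ratios were 0.56 and 0.52 with delphinidin and 0.43 and 0.46 with cyanidin, beyond spot error. With both normexp corrections the cyanidin ratios were 0.40 and 0.39, just within it. With bilberry they were -0.36 and -0.10, within it, and the latter was 0.20 with normexp. Scaling to the spike-ins gave -1.89 and -1.63 with bilberry, beyond spot error, where the all-gene median was -1.37.

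Fabp4 encodes aP2, the cytoplasmic fatty acid binding protein of adipocytes and macrophages. Its 3 probes had log2 levels of 8.05, 7.97 and 3.03 with DMSO. With bilberry they were 7.10, 7.09 and 1.78, with delphinidin 7.85, 7.74 and 2.88, and with cyanidin 8.01, 7.94 and 3.14. The first lies across chr3:10187065-10187794, the second at chr3:10186983-10187043 and the third at chr3:10190974-10191033 (mm8, minus strand). Every probe was lowest on the bilberry array.

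The bilberry log2 ratios of the Fabp4 probes were -0.95, -0.88 and -1.25, or 1.93-fold, 1.84-fold and 2.38-fold lower. The brightest, used to represent the gene, was short of 2-fold and passed it at -1.24 with quantile normalization and -1.56 with normexp. Relative to the all-gene median it was -1.11, which made 4 of 10 markers more than 2-fold lower on that basis, as 8.69% of all genes were. With delphinidin the ratios were -0.19, -0.23 and -0.15, and with cyanidin -0.04, -0.03 and 0.11, all within spot error. Scaling to the spike-ins gave 0.07, 0.03 and 0.11 with delphinidin and 0.21 for each of the brighter pair with cyanidin. Quantile normalization gave 0.06 with delphinidin for the brightest probe, and 0.05 and 0.06 with cyanidin for the brighter pair.

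The lipid droplet and lipolysis markers did not share the low bilberry values. Cidec encodes a lipid droplet protein that enlarges droplets by fusing them. Its probe at chr6:113390476-113390535 (mm8, minus strand) had log2 levels of 4.46 for DMSO, 4.64 for bilberry, 4.81 for delphinidin and 5.12 for cyanidin. Neighbours in this order lay within spot error, while the cyanidin ratio of 0.66 to DMSO, 1.58-fold higher, lay beyond it. The ratios with delphinidin and bilberry were 0.35 and 0.17, and the latter was -0.06 with quantile normalization, -0.47 with normexp and -1.36 with scaling to the spike-ins.

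Lipe encodes hormone-sensitive lipase. The brighter of its 2 probes (chr7:25089715-25091968, mm8, minus strand) had log2 levels of 1.09 for DMSO, 1.37 for bilberry, 1.10 for delphinidin and 1.51 for cyanidin. The other (chr7:25089569-25089628) had 0.74, 1.04, 0.79 and 1.23. Cyanidin was highest and DMSO lowest on both probes. The ratios with cyanidin were 0.42 and 0.49, beyond spot error, with the former at 0.39 and within it under quantile normalization, and with delphinidin 0.01 and 0.05. With bilberry they were 0.28 and 0.29, and -1.25 and -1.24 with scaling to the spike-ins. With normexp the latter pair was -0.07 and -0.01.

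Slc2a4 encodes Glut4, the glucose transporter that insulin brings to the cell surface. Its probe at chr11:69758766-69758825 (mm8, minus strand) is spotted 10 times on each array and had mean processed signals of 371 for DMSO, 85.5 for bilberry, 284 for delphinidin and 361 for cyanidin. The log2 levels were -1.22, -2.75, -1.83 and -1.49. DMSO was the highest and bilberry the lowest.

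Spots marked by the software were left out, which kept 9, 9, 8 and 9 of the 10 Slc2a4 spots on the DMSO, bilberry, delphinidin and cyanidin arrays. Over these the log2 level ran from -1.26 through a median of -1.23 to -1.14 with DMSO, and from -2.89 through -2.73 to -2.64 with bilberry. It ran from -1.87 through -1.84 to -1.77 with delphinidin, and from -1.58 through -1.47 to -1.46 with cyanidin. The spots of the 4 arrays did not overlap, and their SD was 0.038 to 0.079. Spots of an array share its RNA and labeling and are not replicates of the condition. How many other probes spotted 10 times also had spots without overlap was not counted.

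The Slc2a4 log2 ratio was -1.54 with bilberry, 2.90-fold lower and the lowest ratio of the 10 markers, and 2.35% of all genes had a lower one. It was 0.08 with normexp correction, the reverse direction, but -1.03 when spots of marked local background were left out of the same correction and -1.47 with quantile normalization. It was -0.61 with delphinidin, beyond the limit of a single spot, but -0.35 and within that limit with scaling to the spike-ins. With cyanidin it was -0.28, within the limit of a single spot. The spots of the DMSO and cyanidin arrays did not overlap, but they are not replicates of a condition.

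**Figure D3:**
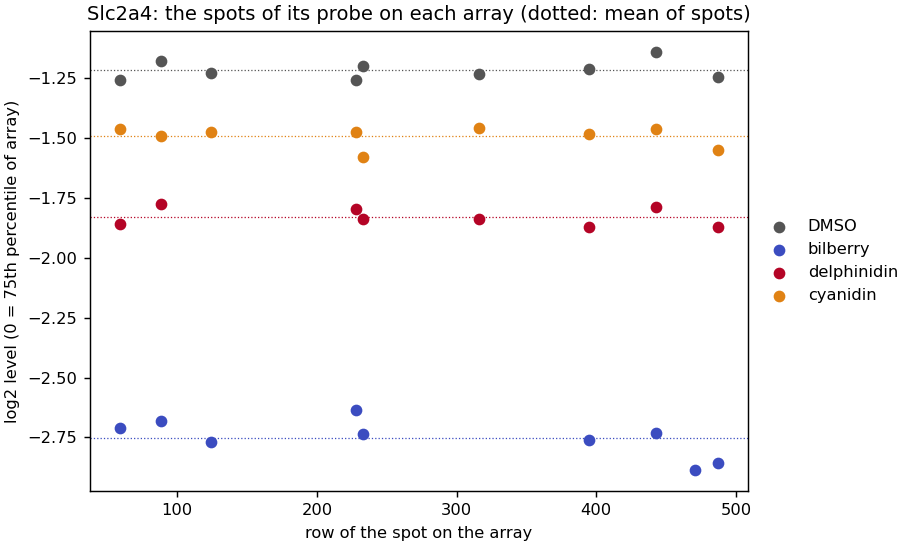
Log2 level (y axis, 0 being the 75th percentile of the array) of each Slc2a4 spot used, against its row on the array (x axis), with dotted lines at the mean of the spots of each array. The bilberry spots lie between -2.89 and -2.64 and the DMSO spots between -1.26 and -1.14, over the whole height of the array; with normexp correction the 2 arrays do not keep this order, but they do when spots of marked local background are left out of it.

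Each marker was also placed in the distribution of all genes for the same additive. The shares of genes with a lower bilberry ratio were 2.35% for Slc2a4, 5.68% for Retn, 5.75% for Adipoq and 7.14% for Fabp4. Cfd was at 91.6%, and the other 5 markers were between 21.0% and 59.0%. The SD of the ratios over all genes was 0.66 for bilberry, 0.39 for delphinidin and 0.37 for cyanidin. With delphinidin, Cfd, Lpl and Cd36 were at 99.2%, 97.3% and 95.4%, and Agt and Slc2a4 at 5.70% and 5.14%. With cyanidin, Cfd, Lpl, Cidec, Cd36 and Lipe were at 99.9%, 98.7%, 97.9%, 93.1% and 92.5%, and no marker was below the 17.2% of Agt.

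**Figure D4:**
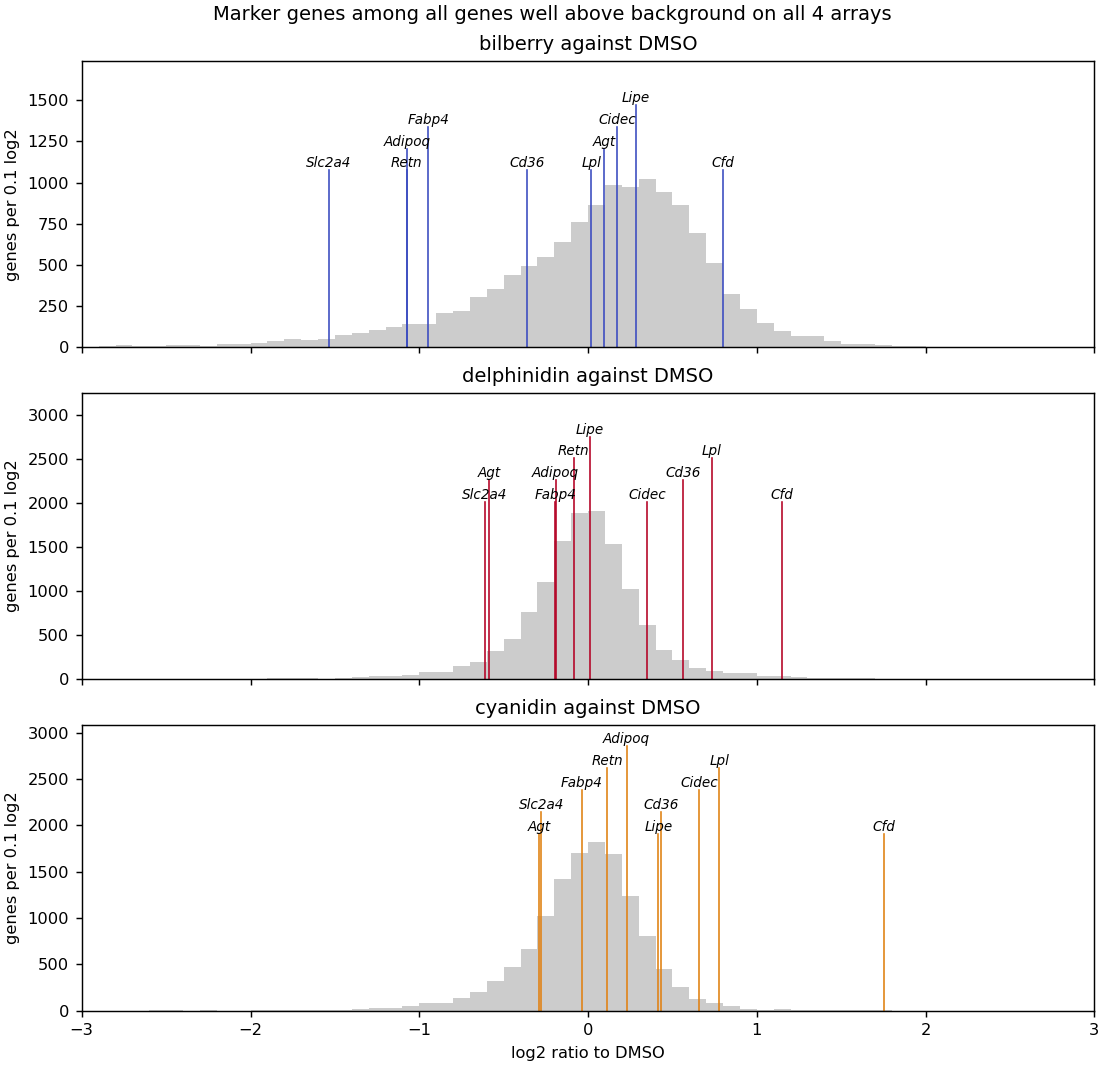
Number of genes (y axis) per 0.1 of log2 ratio to DMSO (x axis) among the 12896 genes detected throughout, in 1 panel per additive, with a line at the ratio of each marker gene. Slc2a4, Retn, Adipoq and Fabp4 lie in the lower tail with bilberry, and Cfd lies in the upper tail of all 3 panels. Scaling to the spike-ins moves Cfd to -0.73 and the all-gene median to -1.37 with bilberry, with ranks unchanged.

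Delphinidin and cyanidin were compared directly, since both were used at 100 nM for the same time. Delphinidin carries an additional hydroxyl group on its B ring. In 10 gene comparisons the log2 ratio of delphinidin to cyanidin was below 0 in 9, with Cd36 as the exception, where 55.8% of all genes were below 0. Their median was -0.30, beside -0.03 over all genes. None of the 10 was more than 2-fold lower or higher, where 0.372% and 0.411% of all genes were. With 1 array per compound no test of these differences could be made.

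By the limit of a single spot, only Cfd, Adipoq and Lipe differed between the compounds by more than spot error, and all 3 were lower with delphinidin. Slc2a4 lay within that limit. Its delphinidin spots were all below its cyanidin spots, but spots of an array are not replicates of a condition. Of all genes, 3.09% were lower and 3.84% higher beyond their own spot error in this comparison. The Cfd ratio was -0.60, or 1.52-fold, with an interval of spot error whose end nearest 0 was -0.20. Adipoq was at -0.42, from -0.82 to -0.02. Lipe was at -0.41, from -0.81 to -0.01, and its second probe at -0.44. The intervals of Adipoq and Lipe ended close to 0, and their calls did not hold under all settings. Adipoq was at -0.38 and -0.39 with the normexp corrections, and Lipe at -0.39 with quantile normalization and with scaling to the spike-ins, all within spot error. Lipe also came just within it with normexp and with scaling to the median of detected probes.

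The other 7 genes lay within the limit of a single spot, with intervals that include 0. Slc2a4 was at -0.34, from -0.74 to 0.06, Cidec at -0.31, from -0.71 to 0.09, and Agt at -0.29, from -0.69 to 0.11. The Slc2a4 interval is that of a single spot. Its spots, which are not replicates of a condition, ran from -1.87 to -1.77 with delphinidin and from -1.58 to -1.46 with cyanidin. Retn was at -0.20, from -0.60 to 0.20, and Fabp4 at -0.16, from -0.56 to 0.24. Lpl was at -0.04, from -0.44 to 0.36, while its second probe was at 0.34, and Cd36 was at 0.13, from -0.27 to 0.53. The 2 Lpl probes thus differed in sign, and Fabp4 was 0.01 with quantile normalization. The bilberry extracts were used at 100 μg/mL, a dose that cannot be matched to these, and their values are given beside them only.

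**Figure D5:**
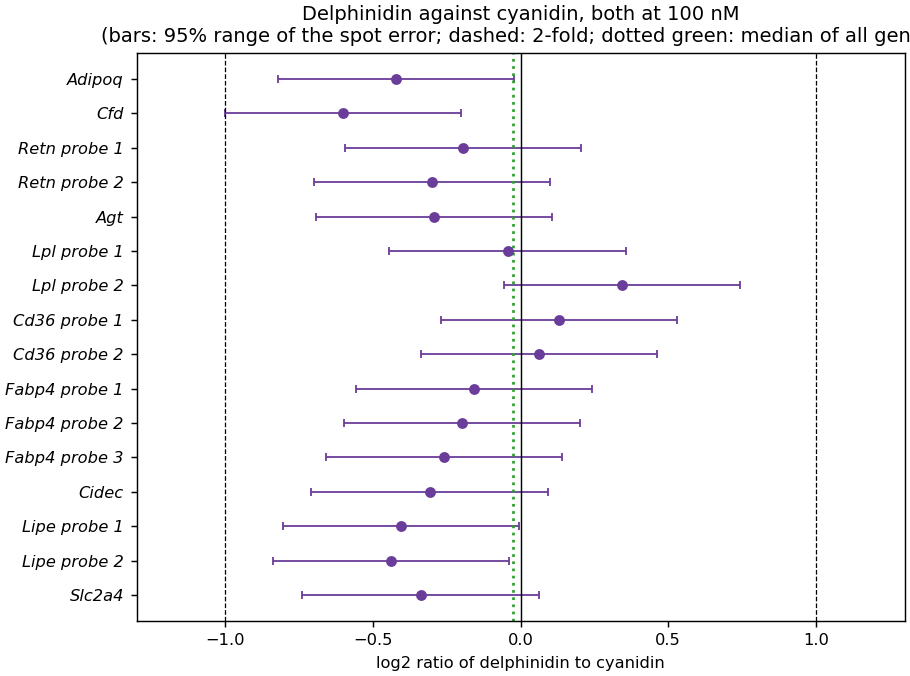
Log2 ratio of delphinidin to cyanidin (x axis) for each of the 16 probes (y axis), with bars of 1.96 spot errors, dashed lines at 2-fold and a dotted line at the all-gene median of -0.03. Most points lie below 0, as do 55.8% of all genes, and only the bars of Adipoq, Cfd and Lipe stay clear of it. Each bar is the error of a single spot, also for Slc2a4. Its delphinidin and cyanidin spots did not overlap, but they are not replicates of a condition. The sign of Fabp4 probe 1 turns with quantile normalization.

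Other adipocyte genes were counted from lists written by hand, with the 6.58% lower, the 4.06% higher and the median of 0.16 over all genes with bilberry as the background. The shares over all genes were 1.52% lower and 1.19% higher with delphinidin, and 1.39% and 0.605% with cyanidin. The lipid droplet and lipolysis list held 20 genes. Of these, 5 (Cideb, Fitm1, Pnpla3, Adrb3 and Aqp7) passed the detection call on no array. Of the 13 genes that passed it on every array, 2 were more than 2-fold lower with bilberry and none higher, with a median of 0.20. These were G0s2, an inhibitor of adipose triglyceride lipase, at -1.37 and Bscl2, the seipin gene, at -1.26, whereas Plin1, a perilipin of the droplet coat, was at 0.39 and Fitm2 at 0.46. Of 18 genes of triglyceride synthesis and fatty acid handling, none passed 2-fold in either direction with any additive. Their bilberry median was 0.18, from Vldlr at -0.54 and Lpin1 at -0.21 to Dgat1 at 0.69 and Agpat2 at 0.89. Pck1, Scd1, Scd2 and Lmf1 of that list had no value on all 4 arrays.

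Of 15 other secreted products, 4 (Lep, Rbp4, Serpina12 and Itln1) passed the detection call on no array. Of the 10 that passed it on every array, 3 were more than 2-fold lower with bilberry and none higher, beside 6.58% and 4.06% of all genes. Their median was -0.19, beside 0.16. Hp, which encodes haptoglobin, was at -3.18, -2.89 and -1.98 in the order bilberry, delphinidin, cyanidin. Ccdc80 was at -1.31 and Rarres2, the chemerin gene, at -1.16 with bilberry, and Metrnl and Apln were at 0.55 and 0.74. Hp was thus the gene of this list past 2-fold with all 3 additives. With delphinidin and cyanidin it was the only 1 of the 10 lower, beside 1.52% and 1.39% of all genes.

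Of 16 adipogenic transcription regulators, 1 was more than 2-fold lower with bilberry, Klf15 at -1.16, which was also at -1.26 with delphinidin and -0.72 with cyanidin. The bilberry median of the 16 regulators was 0.21, with Ebf1 at -0.28 and Ebf2 and Ppargc1b at 0.75 and 0.84. Srebf1 of that list had no value on all 4 arrays. Of 15 preadipocyte markers, 2 were more than 2-fold lower with bilberry, beside 6.58% of all genes. These were Ly6a at -2.13 and Thy1 at -1.20. With delphinidin and cyanidin Ly6a was at -2.25 and -1.08, past 2-fold as well, where 1.52% and 1.39% of all genes were lower. Thy1 was at -0.94 and -0.87 with them. With bilberry Col1a1 and Sox9 were at 0.42 and 0.58. Their bilberry median was -0.21.

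Markers of other cell types that could express some of these genes were detected in part. Of 8 macrophage markers, 5 passed the detection call on every array (Aif1, Lyz2, Cd14, Cd68 and Csf1r), and Ptprc, Adgre1 and Itgam on none. With bilberry Aif1 was at -1.21 and Csf1r at 1.16, and the other 3 were between -0.16 and -0.09. With delphinidin Aif1 was at -1.05 and Cd14 at -0.90, while Lyz2, Cd68 and Csf1r were at -0.04, 0.19 and 0.26. The summed level of the 8 macrophage markers was 1.16 times the 75th percentile for DMSO, 0.98 for bilberry, 0.70 for delphinidin and 0.90 for cyanidin. Of 7 endothelial markers, Vwf passed it on every array, Emcn on 2, and the others on none, with a summed level of 0.049 to 0.071. Of 8 skeletal muscle markers, 4 (Tnnt3, Mylpf, Acta1 and Des) passed it on every array and Myh3 on the bilberry array alone, with sums of 1.26 with DMSO and 0.63 with bilberry. With bilberry Tnnt3 was at -2.10 and Mylpf at -0.77, while Acta1 and Des were at 0.03 and 0.09. Of 7 brown adipocyte markers, Elovl3, Cox7a1 and Dio2 passed it on every array, and Ucp1, Prdm16, Zic1 and Lhx8 on none, with sums of 0.56 to 0.88. Elovl3 was at -1.16 with bilberry. The part of these genes in the marker values was not tested.

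The 5 other genes nearest to the median pattern of the markers, by Euclidean distance over the 3 log2 ratios among 12886 genes, were Pld1, Usp49, Dclre1a, Rexo2 and Cdk8, at 0.031 to 0.090. The markers themselves lay farther away, from 0.47 for Lipe to 2.10 for Cfd. The median pattern thus described none of the 10 genes closely.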

How the data were processed

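Total RNA of each culture was labeled with Cy3, and the output that the Agilent Feature Extraction software wrote for each scanned array was deposited. The processed signal is an intensity, deposited by the authors after background subtraction by that software. A table of the whole series held the same values, with a largest relative difference of 0. No column belonged to an unmapped sample (0).

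The 43379 non-control spots of an array were scaled by their 75th percentile and converted to log2. The study's methods also scale by a 75th percentile, but over all measurements and after setting low values to a floor, which was not applied here. Spots marked as outliers were left out, and spots of 1 probe were averaged. Of 41174 probes, 39373 had a value on all 4 arrays. Gene symbols are those of the files, updated for 24375 probes through a RefSeq table (GRCm38.p6, names only). Probe coordinates are those of the files (mm8), and promoters are RefSeq's. A gene was represented by its probe of highest mean level, and a call was a ratio past 2-fold. Spot errors came from the software's error model, and over 140 probes spotted 10 times the median SD of spots was 0.030 to 0.037 on the log2 scale. The number of arrays limits the precision. Python 3.11.15, numpy 2.4.6, pandas 2.3.3, matplotlib 3.10.9, R 4.3.3 and limma 3.58.1 were used, and the calculations were tested on simulated data.

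The markers, lists and rules were chosen with earlier results of these data known. Genes named are every marker, the 5 nearest in pattern, the 2 highest and 2 lowest of each list with bilberry, and cell type markers well above background on any array. Undetected cell type markers, undetected lipid droplet and secreted product genes, and list genes without a value are named to account for them. Rarres2, Pparg and Cebpa were added after their values were seen. Alternatives were 2 normexp corrections with an offset of 50, quantile normalization, 3 other scalings, the deposited table, marked spots kept, other probe rules, a detection filter and thresholds of 1.5-fold and 3-fold.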

Additional observations from a re-analysis of the deposited data

Results flagged for a closer look

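The spike-in control RNAs belong to no comparison above but carried a signal that differed between arrays. Over 10 controls, the median log2 signal without scaling was higher with bilberry than with DMSO by 0.948. The delphinidin and cyanidin arrays were at -0.03 and 0.01 relative to DMSO. The 75th percentile of the bilberry array was lower than that of the DMSO array, at 576 against 861, and the cause was not tested.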

How the results depend on the processing

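Of 512 recomputed ratios of single probes, 399 moved by less than the spread of spots, 112 moved more, and 1 that was past 2-fold turned its sign, which was Slc2a4 with bilberry at 0.075 with normexp. The sign turned in 31 of the 512, and among smaller ratios Cfd with bilberry went from 0.80 to -0.73 with spike-in scaling, beyond spot error on both sides. The same scaling moved the all-gene bilberry median to -1.37. The median bilberry ratio of -0.17 was -0.52 with normexp, -0.31 with quantile normalization, -1.70 with spike-in scaling, -0.22 with the mean of all probes and -0.28 with the dimmest probe of a gene. The delphinidin median was 0.030 with quantile normalization and 0.23 with spike-in scaling, and the cyanidin median 0.57 with spike-in scaling. The count of 3 markers more than 2-fold lower with bilberry was 9 with spike-in scaling, where 77.7% of all genes were, and 0 at 3-fold, beside 2.20%. It was 4 at 1.5-fold, beside 13.8%, and 2 to 4 under the other alternatives, beside 3.60% to 7.46%. With delphinidin, 2 markers were lower at 1.5-fold, beside 5.71%. The alternatives for counts of higher markers were chosen after seeing the data. They gave 1 with bilberry, Cfd, under normexp and at 1.5-fold, where 22.8% and 18.7% of all genes were. With delphinidin they gave 0 under both normexp corrections, 2 at 1.5-fold and 0 at 3-fold, beside 0.682%, 4.21% and 0.256%. With cyanidin they gave 2 with spike-in scaling, where 1.41% of all genes were, and 3 at 1.5-fold, beside 3.02%. Spike-in scaling took Adipoq and the second Retn probe with cyanidin, and Cidec with delphinidin, beyond spot error, at 0.47, 0.42 and 0.62. The delphinidin to cyanidin median lay between -0.30 and -0.25 under every alternative run. The cause of these shifts was not tested. No paired analysis was possible because each condition had 1 array. All markers were called well above background on all arrays, but normexp correction also took Adipoq with bilberry and Cfd with delphinidin short of 2-fold, at -0.69 and 0.94.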
